A study of Mus musculus with 105 samples.

Results

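Tumours and the surrounding non-tumour liver of mice with hepatocyte loss of β-catenin were compared across all 12966 genes of the deposited table. The comparison held 6 of the 105 libraries of the series, chosen by their labels: 3 of BKO tumours and 3 of BKO non-tumour liver, both taken at 8 months of age from mice given diethylnitrosamine (DEN), a carcinogen that damages hepatocyte DNA. BKO stands for the genotype that the labels call a beta catenin KO, and the title of the series places the loss in hepatocytes. The Cre driver, the floxed alleles, the strain, the sex of the mice, the DEN dose and the number of animals behind a library were not given in the sources used here. All groups of the series received DEN, so the non-tumour liver is carcinogen-exposed tissue and not healthy liver.

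For context, the same comparison was read in MKO mice (cMet KO, gene Met) and in wild-type (WT) mice that were given DEN, sampled at 8 months and sequenced in the same sequencing group, with 3 tumour and 3 non-tumour libraries each. RNA was sequenced with MAPS libraries, in which reads come from the polyadenylated 3′ end of each transcript. Values are given as normalised reads per gene and library, which serve to compare libraries for 1 gene and not to compare genes with each other. Differences are tumour minus non-tumour means on the deposited log2 scale ± SE, with the adjusted p of limma over all genes. Genes with an adjusted p under 0.05 count as called. Unless another fit is named, SE and p come from a fit of all 45 libraries of the sequencing group. These include BKO, MKO and WT livers of 1, 3 and 5 months, and those of BKO and WT are also read for some genes below. The spread behind SE and p is thus pooled over 15 groups and not taken from the 6 BKO libraries alone. A log2 difference understates the change of a gene with few reads, because the scale flattens near 0 reads. Replicate numbers in the labels are described as biological, without a statement that each is another animal, so p-values cover variation among libraries and no more.

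β-catenin, the product of Ctnnb1, joins cadherins to the cytoskeleton at cell contacts and, when WNT signals stabilise it, switches on target genes in the nucleus. In the liver lobule this signalling is strongest around the central vein, where it maintains the pericentral set of genes, including glutamine synthetase and several cytochromes P450. Many human and mouse liver tumours carry activating mutations of β-catenin. Hepatocyte tumours in general tend to lose the specialised enzymes of the adult liver, such as those for bile acids, drugs and amino acids, and to express genes of the fetal liver.

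Reads over the listed genes came to 16895650, 20198617 and 19404937 in the 3 BKO tumour libraries and to 13407336, 11688496 and 12662733 in the non-tumour libraries, so the tumours were the deeper group. No library was a copy of another, since the lowest chi-square per gene between any pair of the 6 was 34.3. Non-tumour library 1 stood nearest to the tumours: its correlation with tumour libraries 1, 2 and 3 was 0.943, 0.960 and 0.972 over the better expressed genes, against 0.950 and 0.959 with non-tumour libraries 2 and 3. Tumour library 1 stood farthest out, at 0.859 and 0.880 with non-tumour libraries 2 and 3. Among genes called higher, non-tumour library 1 was the closest of its group to the tumours in 885 of 1088 (81.3%), and among genes called lower in 671 of 819 (81.9%). Whether non-tumour library 1 held tumour tissue was not tested. Hepatocyte genes dominated both tissues: Alb had 818551, 947825 and 894483 normalised reads in the tumours, against 592508, 558351 and 671436 in non-tumour liver, with a log2 difference of 0.55 ± 0.28 (adjusted p = 0.204).

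The targeted gene was read first. Ctnnb1 (chr9:120929216-120960507, plus strand, GRCm38) had 175, 182 and 160.0 normalised reads in the tumours, against 103, 127 and 101 in non-tumour liver. It rose in the tumours (log2 difference 0.54 ± 0.14, adjusted p = 0.00757), and the groups did not overlap. Ctnnb1 had an adjusted p of 0.0501 without non-tumour library 3. In a fit of the 6 libraries alone with the replicate numbers as a block its adjusted p was 0.0623. In WT mice the difference was 0.66 ± 0.14 (adjusted p = 0.000461), with 231, 141 and 174 reads in WT tumours, against 96.3, 99.1 and 115 in WT non-tumour liver. The BKO and WT levels overlapped in both tissues, and the label could not be checked on this gene: a count of 3′ ends does not show whether an internal part of a transcript was deleted, and RNA of other cells of the liver is counted too.

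Tumours and non-tumour liver differed in 1907 of 12966 genes (14.7%), 1088 of them higher in the tumours (8.39%) and 819 lower (6.32%). These shares of all genes are the background for the counts of each gene list below. Differences of at least 2-fold made up 309 of the rises and 250 of the falls, and the median difference over all genes was 0.02. In 1043 of the 1088 rises (95.9%) and 811 of the 819 falls (99.0%) all 3 numbered pairs of tumour and non-tumour libraries moved the same way. These genes were called on the means of the same 6 libraries, so this share follows largely from their selection. The labels do not say whether same-numbered libraries come from the same animal. The groups did not overlap, whatever the test said, in 1855 genes that were higher in tumours (14.3% of all genes) and 1512 that were lower (11.7%). The number of calls depended on single libraries. It was 1386 higher and 1131 lower without non-tumour library 1, 476 and 304 without non-tumour library 2, 549 and 377 without non-tumour library 3, 628 and 344 without tumour library 1, 807 and 633 without tumour library 2, and 1135 and 833 without tumour library 3. A core of 539 genes, 339 higher and 200 lower, stayed called under each of these omissions, with the replicate block in the fit of all 45 libraries of the sequencing group and with voom on the recovered reads. In a fit of the 6 libraries alone 8 genes were called higher and 4 lower. With the replicate numbers as a block in that fit, named the paired 6-library fit in what follows, 595 were called higher and 547 lower.

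The largest rise that the rule for naming genes took was Wfdc15b (chr2:164214454-164221660), a gene of the WAP domain family of small secreted proteins. It had 313, 545 and 958 normalised reads in the tumours, against 100.3, 24.1 and 9.15 in non-tumour liver (log2 difference 3.33 ± 0.49, adjusted p = 5.34e-05). All 3 tumours lay above all 3 non-tumour libraries. In BKO livers of other ages its highest value was 8.38 reads at 1 month, 4.15 at 3 months and 57.1 at 5 months. The median at 5 months, 57.0 reads, was above non-tumour libraries 2 and 3 of 8 months. Ocstamp, known from the fusion of osteoclast precursors, had 405, 692 and 236 normalised reads in the tumours, against 94.7, 15.5 and 13 in non-tumour liver (log2 difference 2.98 ± 0.47, adjusted p = 8.46e-05). Tmem54, a gene for a membrane protein, had 131, 133 and 223 normalised reads in the tumours, against 11.8, 6.99 and 1.52 in non-tumour liver (log2 difference 2.79 ± 0.53, adjusted p = 0.000527). Again no tumour value reached down to the highest non-tumour value. Klrb1b, known as an inhibitory receptor of natural killer cells, had 586, 932 and 1009 normalised reads in the tumours, against 290.4, 52.8 and 57.2 in non-tumour liver (log2 difference 2.73 ± 0.47, adjusted p = 0.000194), while the list of 13 measured T and NK cell genes had no member called.

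Elapor1, a gene of the endosome and lysosome system, had 1237, 1182 and 578 normalised reads in the tumours, against 433, 67.6 and 70.9 in non-tumour liver (log2 difference 2.60 ± 0.45, adjusted p = 0.000185). Scn8a, a voltage-gated sodium channel, had 464, 392 and 316 normalised reads in the tumours, against 157, 20.2 and 35.8 in non-tumour liver (log2 difference 2.39 ± 0.36, adjusted p = 5.91e-05). F2rl1, the protease-activated receptor PAR2, had 187, 274 and 299 normalised reads in the tumours, against 66.7, 10.9 and 26.7 in non-tumour liver (log2 difference 2.36 ± 0.37, adjusted p = 8.34e-05). The tumours were higher without overlap in each of these, and each kept its call without any 1 of the 6 libraries. Bex1, a small X-linked gene known to be raised in immature hepatic tumour cells, had 342, 266 and 138 normalised reads in the tumours, against 51.7, 28 and 10.7 in non-tumour liver (log2 difference 2.36 ± 0.37, adjusted p = 8.46e-05), and Csn3, the milk protein κ-casein, had 506, 385 and 87.5 normalised reads in the tumours, against 69.2, 24.1 and 15.2 in non-tumour liver (log2 difference 2.38 ± 0.51, adjusted p = 0.00149). Tumour library 3 was the lowest tumour for both and still lay above every non-tumour library.

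Lcn2, an iron-siderophore binding protein that hepatocytes and neutrophils secrete in inflammation, had 16828, 10544 and 27495 normalised reads in the tumours, against 8354, 723 and 944 in non-tumour liver (log2 difference 3.22 ± 0.79, adjusted p = 0.00505). Non-tumour library 1 held 8354 reads and lay close to the lowest tumour. Without non-tumour library 2 the adjusted p of Lcn2 was 0.0684. The female-biased cytochromes Cyp2a4 and Cyp2b9 and the hydroxysteroid dehydrogenase Akr1c18 rose as well, but their calls depended on single libraries. Cyp2a4 had 8267, 10066 and 6719.9 normalised reads in the tumours, against 3124, 715 and 710.3 in non-tumour liver (log2 difference 2.78 ± 0.83, adjusted p 0.113 without non-tumour library 2, 0.104 without non-tumour library 3, 0.0624 without tumour library 1 and 0.0612 without tumour library 2). Reads of Cyp2a4 and its near copy Cyp2a5, and of Cyp2b9 and its copies, may be divided between the copies by the counting.

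**Figure D1:**
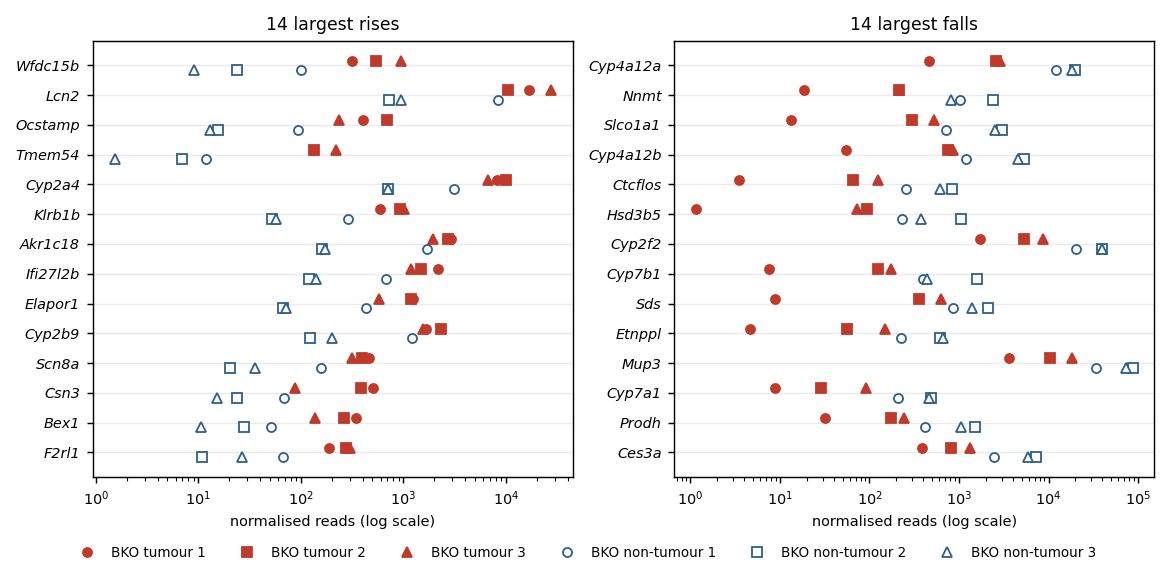
Normalised reads (log axis) of the 14 largest rises and 14 largest falls taken by the naming rule, with 1 row per gene, filled red symbols for the 3 BKO tumours and open blue symbols for the 3 BKO non-tumour libraries. Non-tumour library 1 (open circle) lies nearest the tumours for most genes, as for Lcn2 at 8354 reads, and tumour library 1 (filled circle) lies lowest for most falls, as for Cyp7a1 at 8.72 reads.

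Most of the 14 largest falls were genes of enzymes and transporters of the mature hepatocyte. Cyp7a1 (chr4:6265612-6275633, minus strand), which catalyses the first and limiting step from cholesterol to bile acids, had 8.72, 28.4 and 92.2 normalised reads in the tumours, against 210.0, 481 and 457 in non-tumour liver (log2 difference −2.75 ± 0.64, adjusted p = 0.0032). The tumour with the most reads, library 3, still held fewer than the lowest non-tumour library. Prodh, which begins the breakdown of proline in mitochondria, had 32, 174 and 244 normalised reads in the tumours, against 419, 1492 and 1065 in non-tumour liver (log2 difference −2.63 ± 0.59, adjusted p = 0.00221). Both kept their calls when any 1 of the 6 libraries was left out. Nnmt, which methylates nicotinamide, had 18.6, 216 and 212 normalised reads in the tumours, against 1027, 2421 and 812 in non-tumour liver (log2 difference −3.26 ± 0.77, adjusted p = 0.00383). For Nnmt the adjusted p was 0.0638 without tumour library 1. Etnppl, which breaks down phosphoethanolamine, had 4.65, 55.8 and 148 normalised reads in the tumours, against 224, 609 and 668 in non-tumour liver (log2 difference −2.76 ± 0.65, adjusted p = 0.00365). When single libraries were left out, Etnppl had an adjusted p of 0.0643 without tumour library 1. The list also held Mup3, a secreted pheromone carrier, and Ctcflos, annotated as an antisense RNA, which had 3.49, 64.7 and 124 normalised reads in the tumours, against 257, 844 and 619.6 in non-tumour liver (log2 difference −2.99 ± 0.78, adjusted p = 0.008). Omissions gave Ctcflos an adjusted p of 0.0639 without non-tumour library 2 and 0.0995 without tumour library 1. Whether reads were counted by strand is not given in the sources used here, so reads of Ctcflos and of its antisense partner may not be separated. Tumour library 1 was the lowest of the tumours for all 14 falls, and the other tumours lay between it and non-tumour liver.

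**Figure D2:**
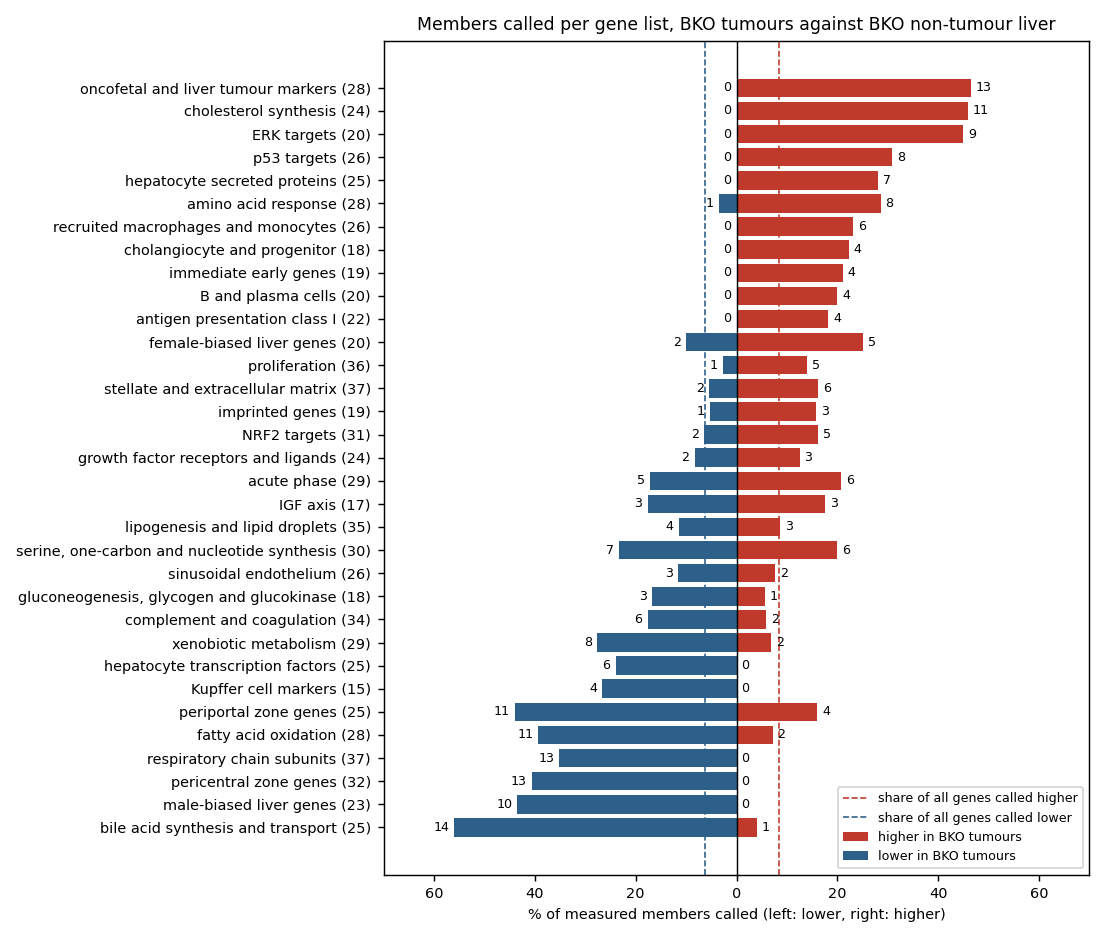
Share of the measured members of each gene list that was called higher (red, right) or lower (blue, left) in BKO tumours against BKO non-tumour liver, in percent, with the number called at the bar end, the number measured in brackets and dashed lines at the shares over all genes (8.39% and 6.32%). Lists with at least 4 called members are drawn; bile acid, male-biased and pericentral genes extend to the left, and tumour marker, cholesterol synthesis and ERK target genes to the right.

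Genes of bile acid synthesis and transport were lower in the tumours. Of 25 measured members (26 listed), 14 fell and 1 rose, with a median difference of −0.83. The falls included the synthesis enzymes Cyp7a1 and Cyp7b1, the bile acid CoA ligase Slc27a5, the uptake carriers Slco1b2 and Slc10a1, the canalicular export pump Abcb11 and the bile acid receptor Nr1h4 (FXR). Slco1b2 had 63.9, 124 and 251 normalised reads in the tumours, against 430.0, 1375 and 945 in non-tumour liver (log2 difference −2.46 ± 0.51, adjusted p = 0.00124). Slc27a5 had 1154, 1589.8 and 1660.3 normalised reads in the tumours, against 2538, 5232 and 3668 in non-tumour liver (log2 difference −1.32 ± 0.28, adjusted p = 0.00157). The tumours of both lay wholly below non-tumour liver. Abcb11 had 643, 691 and 750.2 normalised reads in the tumours, against 1047, 1805 and 1424 in non-tumour liver (log2 difference −0.98 ± 0.22, adjusted p = 0.00291), and Nr1h4 had 194, 182 and 235 normalised reads in the tumours, against 320.3, 347 and 370.4 in non-tumour liver (log2 difference −0.70 ± 0.17, adjusted p = 0.00422). The member that rose was Abcc2, an export pump for conjugated bilirubin, named here after its values were seen, with 3999.9, 3626 and 3279 normalised reads in the tumours, against 3100.5, 2297 and 2273 in non-tumour liver (log2 difference 0.51 ± 0.15, adjusted p = 0.0201). The call of Abcc2 was lost, with an adjusted p of 0.119 without non-tumour library 2, 0.116 without non-tumour library 3, 0.11 without tumour library 1 and 0.0502 without tumour library 2. Abcc2 had an adjusted p of 0.108 in the paired 6-library fit. The number of members that fell was 16, 7 and 10 without non-tumour library 1, 2 and 3, and 7, 12 and 15 without tumour library 1, 2 and 3, and 5 were in the core of 539 genes. In WT tumours 15 members fell and 2 rose, and in MKO tumours 13 fell and 1 rose, where 12% and 7.56% of all genes were called lower.

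Male-biased liver genes, which pulsed growth hormone maintains in male mice, fell in 10 of 23 measured members (24 listed) and rose in 0, with a median difference of −1.70. Nudt7, a peroxisomal CoA diphosphatase, had 262, 318 and 391 normalised reads in the tumours, against 1425, 1864 and 1197 in non-tumour liver (log2 difference −2.11 ± 0.46, adjusted p = 0.0017) and was the member called under every omission of a library. Cyp4a12a, a male-specific fatty acid ω-hydroxylase, had 462, 2594 and 2894 normalised reads in the tumours, against 12099.8, 19659 and 18152 in non-tumour liver (log2 difference −3.39 ± 1.07, adjusted p = 0.0284). The tumours ranged widely, from 462 reads in library 1 to 2894 in library 3, and all lay below the non-tumour libraries. Cyp4a12a lost its call, with an adjusted p of 0.104 without non-tumour library 2, 0.0887 without non-tumour library 3 and 0.19 without tumour library 1. The near copy Cyp4a12b had 55.2, 758 and 854 reads in the tumours and 1193, 5302 and 4536 in non-tumour liver, and reads may be divided between the pair. With the replicate block 15 fell in the 45-library fit and 16 in the paired 6-library fit. The count of falls was 13, 1 and 4 without non-tumour library 1, 2 and 3, and 2, 9 and 9 without tumour library 1, 2 and 3, so tumour library 1 and non-tumour libraries 2 and 3 carried much of it. In WT tumours, where 12% of all genes were called lower, 20 members fell and the median was −3.35.

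Female-biased genes moved less together: 5 of 20 measured members (26 listed) rose, 2 fell, and the median was 0.30. Rises included Prom1, also a stem cell marker, with 209, 374 and 141 normalised reads in the tumours, against 87.3, 29.5 and 23.6 in non-tumour liver (log2 difference 1.92 ± 0.33, adjusted p = 0.000181), and the peroxisomal transporter Abcd2, with 543, 752 and 653 normalised reads in the tumours, against 435, 112 and 173 in non-tumour liver (log2 difference 1.52 ± 0.42, adjusted p = 0.0129). Abcd2 had an adjusted p of 0.137 without non-tumour library 2, 0.0663 without non-tumour library 3 and 0.0502 without tumour library 2. Abcd2 had an adjusted p of 0.0521 in the paired 6-library fit. The falls were Cyp4a10 (log2 difference −2.94 ± 0.79, adjusted p = 0.0099) and Cyp2b10 (log2 difference −2.04 ± 0.58, adjusted p = 0.0154). Both falls lost their calls without non-tumour library 2, without non-tumour library 3 and without tumour library 1. Among Y-linked transcripts Eif2s3y had 44.2, 25.8 and 29.5 normalised reads in the tumours, against 23.7, 35 and 33.5 in non-tumour liver, and the labels do not give the sex. Ddx3y had 13.9, 121 and 133 normalised reads in the tumours, against 96, 178 and 115 in non-tumour liver, with tumour library 1 the lowest (adjusted p = 0.091, 0.0135 with the replicate block in the 45-library fit and 0.26 in the paired 6-library fit). All 6 libraries thus held Y-linked RNA. The count of female-biased rises was 6, 1 and 1 without non-tumour library 1, 2 and 3, and 2, 2 and 5 without tumour library 1, 2 and 3.

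Hepatocyte genes of the growth hormone and IGF axis included 3 clear falls. Igf1, the circulating growth factor that growth hormone induces, had 896, 958 and 1150.4 normalised reads in the tumours, against 3271, 5683 and 5262 in non-tumour liver (log2 difference −2.18 ± 0.31, adjusted p = 3.24e-05). Igfals, which keeps IGFs in a stable complex in blood, had 54.6, 119 and 201 normalised reads in the tumours, against 371, 837 and 671 in non-tumour liver (log2 difference −2.16 ± 0.38, adjusted p = 0.00024), and Ghr, the growth hormone receptor, had 277, 388 and 540.0 normalised reads in the tumours, against 661, 1279 and 1142 in non-tumour liver (log2 difference −1.29 ± 0.26, adjusted p = 0.000863). The 3 were in the core of 539 genes and did not overlap between tissues. Igfbp1, a binding protein that fasting and insulin shortage induce, rose, with 13348, 19753 and 9013 normalised reads in the tumours, against 4740.2, 3585 and 1318 in non-tumour liver (log2 difference 2.23 ± 0.72, adjusted p = 0.0321). Igfbp1 missed the threshold when single libraries were left out, with an adjusted p of 0.0714 without non-tumour library 2, 0.201 without non-tumour library 3, 0.0888 without tumour library 1 and 0.117 without tumour library 2. In all, 3 of 17 members of the IGF list rose (17.6%, against 8.39% of all genes) and 3 fell (17.6%, against 6.32%). The median was −0.02. Without single libraries 0 to 2 rose and 3 to 4 fell.

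Among pericentral genes, of the zone that β-catenin supports, 13 of 32 measured members fell in BKO tumours against BKO non-tumour liver and 0 rose, with a median of −0.91. In the paired 6-library fit 18 fell and 2 rose. Cyp27a1, a mitochondrial sterol hydroxylase, had 149, 326 and 397 normalised reads in the tumours, against 479, 2044 and 1133 in non-tumour liver (log2 difference −1.84 ± 0.44, adjusted p = 0.00431). For Cyp27a1 the adjusted p was 0.076 without non-tumour library 2 and 0.0563 without tumour library 1. Pon1, a serum esterase made by the liver, had 148, 159 and 309 normalised reads in the tumours, against 333, 1883 and 1159 in non-tumour liver (log2 difference −2.07 ± 0.51, adjusted p = 0.00503). When single libraries were left out, Pon1 had an adjusted p of 0.0801 without non-tumour library 2. Nkd1, a feedback inhibitor of WNT signalling, had 25.6, 17.9 and 24.9 normalised reads in the tumours, against 64.2, 39.6 and 65.5 in non-tumour liver (log2 difference −0.80 ± 0.21, adjusted p = 0.00796). Omissions gave Nkd1 an adjusted p of 0.056 without non-tumour library 3. No member of the list was in the core of 539 genes, and the count of falls was 17, 2 and 3 without non-tumour library 1, 2 and 3, and 2, 9 and 12 without tumour library 1, 2 and 3.

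Glul and Cyp2e1, named after their values were seen, are the classic pericentral genes. Cyp2e1, which activates DEN, had 131, 275 and 411 normalised reads in the tumours, against 598, 3938 and 1711 in non-tumour liver (log2 difference −2.56 ± 0.74, adjusted p = 0.0172). The call of Cyp2e1 was lost, with an adjusted p of 0.16 without non-tumour library 2, 0.0625 without non-tumour library 3 and 0.108 without tumour library 1. Glul, glutamine synthetase, had 178, 550.1 and 586 normalised reads in the tumours, against 469, 1759.6 and 2216 in non-tumour liver, and the groups overlapped (log2 difference −1.59 ± 0.57, adjusted p = 0.0576). It was lower in the tumour of all 3 numbered pairs, by −1.27, −1.63 and −1.87, and was called with the replicate block (adjusted p = 0.00827 in the 45-library fit and 0.00622 in the paired 6-library fit). In WT liver without tumour both were higher than in any BKO library, with 5326, 8114 and 8811 reads of Cyp2e1 and 7678, 9346 and 7633 of Glul. Over age in BKO liver Cyp2e1 had a median of 78.6 reads at 1 month, 43.2 at 3 months, 1056 at 5 months and 1711 in non-tumour liver at 8 months, with a spread at 8 months of 598 to 3938. The tumours, at 131 to 411 reads, lay above the BKO livers of 1 month and below non-tumour liver of 8 months. Of 14 measured WNT feedback genes 2 fell, Nkd1 and Notum, and 0 rose. Notum, a secreted esterase that inactivates WNT proteins, had 3.49, 4.21 and 5.18 normalised reads in the tumours, against 12.5, 22.5 and 14.5 in non-tumour liver (log2 difference −0.69 ± 0.23, adjusted p = 0.0372). Notum lost its call, with an adjusted p of 0.191 without non-tumour library 2, 0.0811 without non-tumour library 3, 0.122 without tumour library 1, 0.0818 without tumour library 2 and 0.0522 without tumour library 3.

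Periportal genes moved both ways. Of 25 measured members 11 fell and 4 rose, with a median of −0.75, and 6 falls were in the core of 539 genes. Otc, a urea cycle enzyme, had 1883, 2216 and 2475 normalised reads in the tumours, against 3290.0, 5892 and 6809.6 in non-tumour liver (log2 difference −1.21 ± 0.21, adjusted p = 0.000183). Fbp1, a key enzyme of gluconeogenesis, had 2009, 3079 and 3282 normalised reads in the tumours, against 4132, 6837 and 5724 in non-tumour liver (log2 difference −0.99 ± 0.17, adjusted p = 0.000212). In both, each tumour lay below each non-tumour library. Apoc2, the cofactor of lipoprotein lipase, was a member that rose, with 35548, 56439.8 and 40571 normalised reads in the tumours, against 27291, 7512 and 8047 in non-tumour liver (log2 difference 1.87 ± 0.33, adjusted p = 0.000236). Apoc2 had an adjusted p of 0.0515 in the paired 6-library fit. Sds, serine dehydratase, had 8.72, 354 and 637 normalised reads in the tumours, against 851, 2132 and 1404 in non-tumour liver (log2 difference −2.82 ± 0.72, adjusted p = 0.00665), with tumour library 1 near 0. Sds had an adjusted p of 0.0561 without non-tumour library 2 and 0.157 without tumour library 1. The count of falls was 11, 7 and 8 without non-tumour library 1, 2 and 3, and 6, 10 and 11 without tumour library 1, 2 and 3.

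Genes of mitochondrial fuel use gave more falls than rises. Of 28 measured genes of fatty acid oxidation (29 listed), 11 fell and 2 rose, with a median of −0.63, and with the replicate block 17 fell in the 45-library fit and 7 in the paired 6-library fit. Ehhadh, a peroxisomal β-oxidation enzyme, had 3.49, 6.32 and 6.73 normalised reads in the tumours, against 15, 30.3 and 24.4 in non-tumour liver (log2 difference −0.84 ± 0.19, adjusted p = 0.00202). Hadh, a mitochondrial one, had 1501, 1372 and 1798 normalised reads in the tumours, against 1830.4, 2566 and 3759.6 in non-tumour liver (log2 difference −0.74 ± 0.18, adjusted p = 0.00469). Without non-tumour library 3 the adjusted p of Hadh was 0.0961. Hadh had an adjusted p of 0.0646 in the paired 6-library fit. The opposite was seen for Cyp4a31, a fatty acid hydroxylase, with 1121, 1109 and 718 normalised reads in the tumours, against 336, 138 and 235 in non-tumour liver (log2 difference 1.98 ± 0.43, adjusted p = 0.00181). Its relative Cyp4a10, encoded nearby on chromosome 4, fell (log2 difference −2.94 ± 0.79), and reads may be divided between the pair. The number of falls was 18, 2 and 2 without non-tumour library 1, 2 and 3, and 4, 9 and 13 without tumour library 1, 2 and 3.

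Of 37 nuclear-encoded respiratory chain subunits 13 fell and 0 rose, with a median of −0.42, and 36 of the 37 had a difference below 0. With the replicate block 20 fell in the 45-library fit and 5 in the paired 6-library fit. Cox6c of cytochrome c oxidase had 380.1, 493 and 549.8 normalised reads in the tumours, against 702, 886 and 969 in non-tumour liver (log2 difference −0.81 ± 0.18, adjusted p = 0.00171). Atp5b of the ATP synthase had 1579.7, 2052 and 1898 normalised reads in the tumours, against 2555, 4739.6 and 3104 in non-tumour liver (log2 difference −0.86 ± 0.22, adjusted p = 0.00717). For Atp5b the adjusted p was 0.111 without non-tumour library 2 and 0.0536 without tumour library 1. The falls were below 2-fold, and the groups did not overlap in 15 of the 37 members, against 11.7% of all genes that were lower without overlap. Falls by the test numbered 23, 1 and 4 without non-tumour library 1, 2 and 3, and 2, 5 and 11 without tumour library 1, 2 and 3. The 7 measured transcripts of the mitochondrial genome had a median of −0.46 with 0 called, and ND4 had 488620.0, 410969 and 522201 normalised reads in the tumours, against 405138, 787486 and 1088670.0 in non-tumour liver (adjusted p = 0.23). Glycolysis genes had 1 rise among 19 measured members and a median of 0.14.

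**Figure D3:**
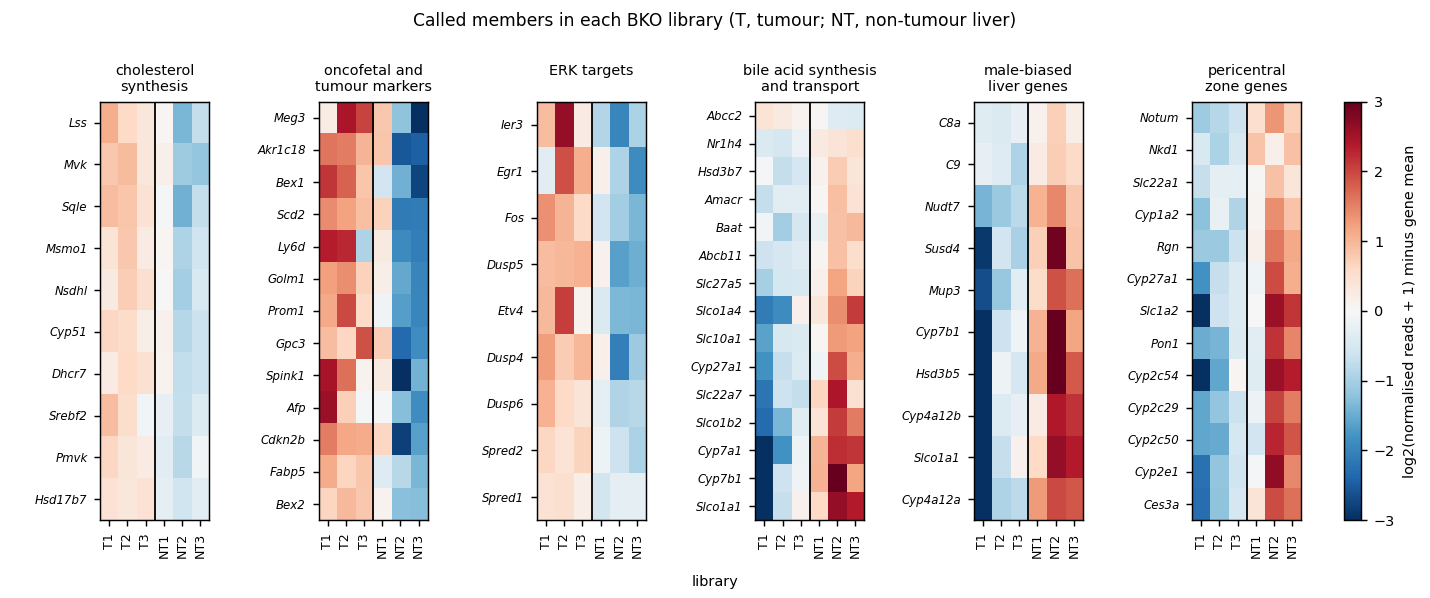
Called members of 6 gene lists, other than those not reported here, in each BKO library, tumours (T) left of non-tumour liver (NT), as log2(normalised reads + 1) minus the mean of the gene over the 6 libraries, red above and blue below that mean. Non-tumour library 1 is the palest of its group, and tumour library 1 is the deepest blue for bile acid and male-biased genes, as for Cyp7a1 at 8.72 reads.

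Genes of cholesterol synthesis gave rises and no falls. Of 24 measured members (25 listed) 11 rose and 0 fell, with a median of 0.80. The pathway is switched on as a whole by the transcription factor SREBP2 when cells run short of sterols. Mvk, mevalonate kinase, had 666, 732 and 480.4 normalised reads in the tumours, against 426, 180.2 and 170.0 in non-tumour liver (log2 difference 1.28 ± 0.21, adjusted p = 0.000104). Srebf2, the gene of SREBP2, had 695, 523 and 347 normalised reads in the tumours, against 308, 221 and 277 in non-tumour liver (log2 difference 0.85 ± 0.18, adjusted p = 0.00177). Neither overlapped between tissues, and both kept their calls without any 1 library. Lss, which closes the first sterol ring, had 1809.9, 1285 and 1075 normalised reads in the tumours, against 889, 329 and 517 in non-tumour liver (log2 difference 1.30 ± 0.33, adjusted p = 0.00665). When single libraries were left out, Lss had an adjusted p of 0.0947 without non-tumour library 2 and 0.06 without tumour library 1. The count of rises was 16, 3 and 6 without non-tumour library 1, 2 and 3, and 4, 7 and 9 without tumour library 1, 2 and 3. In WT tumours 18 members rose and 1 fell, and in MKO tumours 5 rose and 1 fell, where 15% and 9.76% of all genes were called higher.

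The upstream sequences of 4 called members are shown because genes of this pathway moved together and share a promoter motif. The 250 bases before the start are given 5′ to 3′ on the gene's strand, from RefSeq promoters of build GRCm38.p6, with matches to CCAAT (or ATTGG on the other strand), the box bound by NF-Y, and to TCACNNCAC, one spelling of the sterol response element, in capitals. Mvk lies at chr5:114444019-114444268 (plus strand), Lss at chr10:76531355-76531604 (plus), Msmo1 at chr8:64733579-64733828 (minus) and Hsd17b7 at chr1:169969206-169969455 (minus). Msmo1 and Hsd17b7, 2 later enzymes of the pathway, were chosen after their values were seen.
Mvk: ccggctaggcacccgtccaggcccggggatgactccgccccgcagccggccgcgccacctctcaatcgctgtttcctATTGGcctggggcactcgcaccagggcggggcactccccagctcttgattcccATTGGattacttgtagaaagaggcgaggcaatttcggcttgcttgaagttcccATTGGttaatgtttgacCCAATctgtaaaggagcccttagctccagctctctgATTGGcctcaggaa
Lss: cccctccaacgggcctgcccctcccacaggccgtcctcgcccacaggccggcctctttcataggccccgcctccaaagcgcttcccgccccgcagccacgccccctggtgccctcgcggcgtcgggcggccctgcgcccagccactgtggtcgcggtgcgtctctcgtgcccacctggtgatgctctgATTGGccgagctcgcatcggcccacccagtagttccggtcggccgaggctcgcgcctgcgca
Msmo1: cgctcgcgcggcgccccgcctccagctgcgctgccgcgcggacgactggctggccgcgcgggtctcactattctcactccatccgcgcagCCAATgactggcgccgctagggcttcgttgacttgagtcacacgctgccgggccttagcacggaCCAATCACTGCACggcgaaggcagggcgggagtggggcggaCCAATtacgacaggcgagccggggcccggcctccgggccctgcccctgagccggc
Hsd17b7: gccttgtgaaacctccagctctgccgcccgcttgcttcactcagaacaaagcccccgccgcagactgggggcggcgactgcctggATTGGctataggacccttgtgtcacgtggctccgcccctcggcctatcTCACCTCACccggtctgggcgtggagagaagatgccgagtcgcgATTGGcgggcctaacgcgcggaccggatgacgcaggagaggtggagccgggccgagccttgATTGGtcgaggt
Mvk holds 5 CCAAT matches, Lss 1, Msmo1 3 and Hsd17b7 3, and in Msmo1 one of them overlaps the TCACNNCAC match. Msmo1 had 2294, 2995 and 2026 normalised reads in the tumours, against 1792, 896 and 1133 in non-tumour liver (log2 difference 0.96 ± 0.31, adjusted p = 0.0327), and Hsd17b7 had 789.9, 733 and 781 normalised reads in the tumours, against 479, 382 and 466 in non-tumour liver (log2 difference 0.76 ± 0.24, adjusted p = 0.0262). Omissions gave Msmo1 an adjusted p of 0.207 without non-tumour library 2, 0.113 without non-tumour library 3, 0.0775 without tumour library 1 and 0.135 without tumour library 2. Msmo1 had an adjusted p of 0.0685 in the paired 6-library fit. The call of Hsd17b7 was lost, with an adjusted p of 0.135 without non-tumour library 2, 0.0623 without non-tumour library 3, 0.0847 without tumour library 1 and 0.0539 without tumour library 3. Promoters were listed for 16 of the 24 measured members, and CCAAT was found in 15 of them (93.8%), against 40.4% of all tested genes with a promoter, 38.4% of the genes called higher and 42.4% of those called lower. TCACNNCAC was found in 4 of the 16 (25%), against 3.63% of all tested genes. The narrower spelling TCACNCCAC was found in 1 of the 16 (6.25%), against 1.29% of all tested genes. The TCACNNCAC matches shown for Msmo1 and Hsd17b7 do not have the narrower spelling. Results of the other motifs searched are not given. A gene counted if any of its listed starts had a match on either strand, and 12 motifs were searched after the values were seen. A match describes the sequence and is not evidence of binding.

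Oncofetal and liver tumour markers gave rises and no falls: 13 of 28 measured members (30 listed) rose and 0 fell, with a median of 0.83. The list was drawn from genes known in liver tumours. Golm1, a Golgi protein released into blood in liver cancer, had 577, 647 and 396 normalised reads in the tumours, against 278, 83.1 and 61 in non-tumour liver (log2 difference 1.96 ± 0.35, adjusted p = 0.000237). Cdkn2b, an inhibitor of the cell cycle kinases CDK4 and CDK6, had 34.9, 26.8 and 25.9 normalised reads in the tumours, against 18.1, 0.777 and 3.05 in non-tumour liver (log2 difference 1.07 ± 0.22, adjusted p = 0.00112). With Bex1 and Prom1 these were the 4 in the core of 539 genes. Gpc3, a fetal proteoglycan, was named after its values were seen. It had 269, 215 and 527 normalised reads in the tumours, against 234, 27.2 and 38.1 in non-tumour liver (log2 difference 1.85 ± 0.44, adjusted p = 0.00397), and non-tumour library 1 lay within the range of the tumours. Gpc3 lost its call, with an adjusted p of 0.0684 without non-tumour library 2. Gpc3 had an adjusted p of 0.0628 in the paired 6-library fit. Before 8 months its highest value in BKO liver was 7.09 reads. Afp, α-fetoprotein, likewise named after its values were seen, had 138, 36.8 and 21.2 normalised reads in the tumours, against 21.2, 8.55 and 5.33 in non-tumour liver (log2 difference 1.23 ± 0.37, adjusted p = 0.0228), with tumour library 3 level with non-tumour library 1. Afp had an adjusted p of 0.0929 without non-tumour library 2, 0.12 without non-tumour library 3 and 0.286 without tumour library 1. The count of rises was 17, 6 and 5 without non-tumour library 1, 2 and 3, and 8, 10 and 15 without tumour library 1, 2 and 3.

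**Figure D4:**
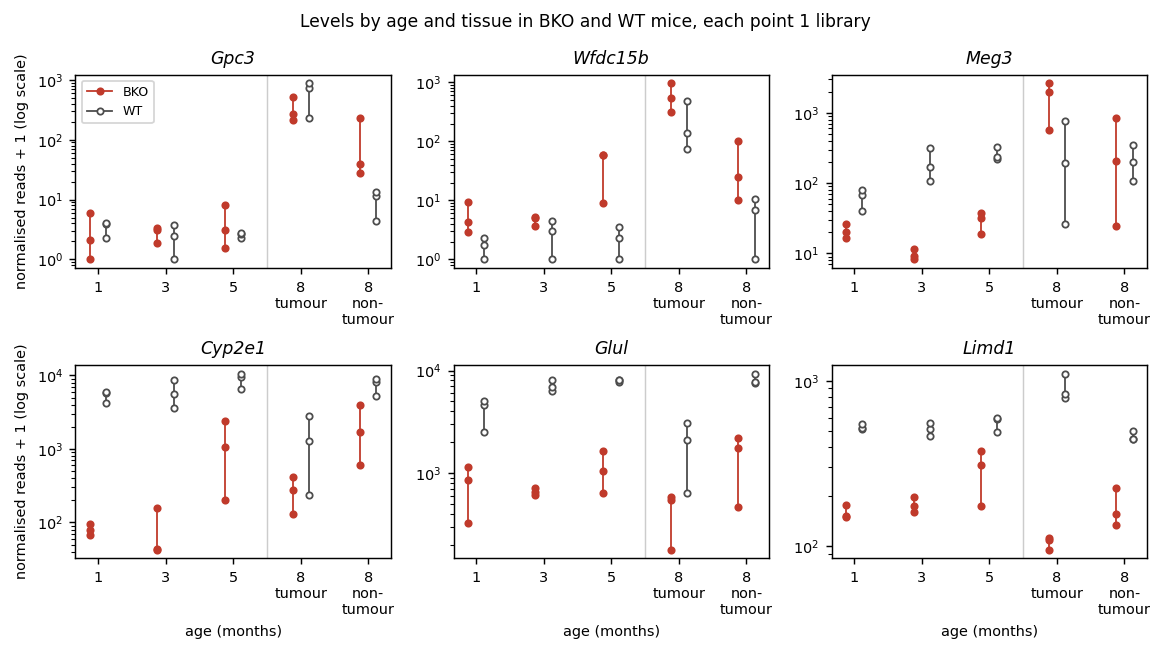
Normalised reads + 1 (log axis) of 6 genes in BKO (filled red) and WT (open grey) libraries at 1, 3 and 5 months and in tumours and non-tumour liver of 8 months, with each point 1 library and lines joining the 3 libraries of a group. Gpc3 and Wfdc15b stay low before 8 months in both genotypes apart from Wfdc15b in BKO at 5 months (up to 57.1 reads), Cyp2e1, Glul and Limd1 lie lower in BKO than in WT in the non-tumour groups, and Meg3 reaches 569 to 2636 reads in BKO tumours.

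Targets of ERK, the kinase at the end of the RAS pathway, gave rises and no falls. Of 20 measured members (22 listed) 9 rose and 0 fell, with a median of 0.61. Several are negative feedback genes that ERK induces. Dusp4 and Dusp5, phosphatases that switch ERK off, had 54.6, 38.4 and 45.6 normalised reads in the tumours, against 24.9, 4.66 and 9.91 in non-tumour liver for Dusp4 (log2 difference 1.07 ± 0.22, adjusted p = 0.000962) and 68.6, 72.6 and 74 normalised reads in the tumours, against 39.3, 10.9 and 12.2 in non-tumour liver for Dusp5 (log2 difference 1.22 ± 0.27, adjusted p = 0.00211). Ier3, an early response gene, had 109, 360.1 and 67.3 normalised reads in the tumours, against 30.5, 14 and 29 in non-tumour liver (log2 difference 1.83 ± 0.37, adjusted p = 0.000988), with tumour library 2 highest. Ier3 had an adjusted p of 0.0521 in the paired 6-library fit. All of these tumours lay above all non-tumour libraries. Fos, part of the AP-1 transcription factor, had 194, 153 and 112 normalised reads in the tumours, against 49.9, 35.7 and 28.2 in non-tumour liver (log2 difference 1.50 ± 0.35, adjusted p = 0.00368), and 4 of 19 immediate early genes rose. The count of ERK target rises stayed between 7 and 10 when any 1 library was left out, 6 rose in the paired 6-library fit, and 5 were in the core of 539 genes.

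Of 24 ligand and receptor genes upstream of this pathway 3 rose (12.5%, against 8.39% of all genes) and 2 fell (8.33%, against 6.32%), shares near those of all genes. Without single libraries 2 to 5 rose and 0 to 4 fell. Tgfa, a ligand of the EGF receptor, had 498, 484 and 212 normalised reads in the tumours, against 179, 149.9 and 132 in non-tumour liver (log2 difference 1.16 ± 0.25, adjusted p = 0.00175). Mst1r, the receptor RON of the MET family, had 55.2, 52.6 and 30.5 normalised reads in the tumours, against 13.7, 3.88 and 2.29 in non-tumour liver (log2 difference 1.42 ± 0.26, adjusted p = 0.000308). Both rose without overlap. Fgfr1, a fibroblast growth factor receptor, had 6.39, 7.9 and 15.5 normalised reads in the tumours, against 37.4, 44.3 and 23.6 in non-tumour liver (log2 difference −0.91 ± 0.23, adjusted p = 0.0055). Without non-tumour library 2 the adjusted p of Fgfr1 was 0.054.

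Targets of p53, the factor activated by DNA damage, rose in 8 of 26 measured members (27 listed) and fell in 0, with a median of 0.39. Phlda3, an inhibitor of AKT, had 176, 224 and 111 normalised reads in the tumours, against 84.8, 22.5 and 38.1 in non-tumour liver (log2 difference 1.48 ± 0.23, adjusted p = 8.69e-05). Btg2, an antiproliferative gene, had 318, 357 and 262 normalised reads in the tumours, against 149, 103 and 61.7 in non-tumour liver (log2 difference 1.42 ± 0.30, adjusted p = 0.00138), and Tnfrsf10b, a death receptor for TRAIL, had 19.8, 13.7 and 8.28 normalised reads in the tumours, against 1.25, 0.777 and 0.762 in non-tumour liver (log2 difference 0.99 ± 0.23, adjusted p = 0.00321). For these 3 no tumour overlapped non-tumour liver. Psrc1, a spindle gene, had 79, 217 and 98.9 normalised reads in the tumours, against 79.8, 4.66 and 3.05 in non-tumour liver (log2 difference 1.92 ± 0.35, adjusted p = 0.000332), where non-tumour library 1 lay just above the lowest tumour and the other non-tumour libraries were near 0. Psrc1 had an adjusted p of 0.0799 in the paired 6-library fit. The number of rises was 13, 5 and 5 without non-tumour library 1, 2 and 3, and 6, 4 and 13 without tumour library 1, 2 and 3.

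Proliferation genes gave few calls. Of 36 measured members (38 listed) 5 rose (13.9%, against 8.39% of all genes) and 1 fell (2.78%, against 6.32%). The median was 0.37, and 32 members had a difference above 0. Ube2c, which serves the anaphase-promoting complex, had 25.6, 14.2 and 14 normalised reads in the tumours, against 10.6, 1.55 and 0.762 in non-tumour liver (log2 difference 0.85 ± 0.21, adjusted p = 0.00506). For Ube2c the adjusted p was 0.0616 without non-tumour library 3 and 0.0531 without tumour library 1. Ccna2, cyclin A2, had 98.8, 63.7 and 61.1 normalised reads in the tumours, against 61.1, 16.3 and 22.9 in non-tumour liver (log2 difference 0.87 ± 0.28, adjusted p = 0.0317). When single libraries were left out, Ccna2 had an adjusted p of 0.223 without non-tumour library 2, 0.139 without non-tumour library 3 and 0.175 without tumour library 1. The member that fell was Tk1, thymidine kinase, with 87.8, 88.4 and 154 normalised reads in the tumours, against 146, 298 and 338 in non-tumour liver (log2 difference −1.04 ± 0.24, adjusted p = 0.00317), and tumour library 3 lay above the lowest non-tumour library. The number of rises was 14, 1 and 0 without non-tumour library 1, 2 and 3, and 0, 2 and 5 without tumour library 1, 2 and 3. In WT tumours 28 members rose and 1 fell, and in MKO tumours 2 rose and 1 fell, but no proliferation gene was called in the tests of a difference between genotypes. The shares of all genes called higher were 15% in WT tumours and 9.76% in MKO tumours.

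The amino acid response, driven by ATF4 when amino acids are short, rose in 8 of 28 members and fell in 1, with a median of 0.35. Psat1, an enzyme of serine synthesis, had 284, 141 and 98.9 normalised reads in the tumours, against 66.7, 12.4 and 11.4 in non-tumour liver (log2 difference 1.96 ± 0.32, adjusted p = 0.000104). Sars, the tRNA ligase for serine, had 1215, 1010.2 and 1076 normalised reads in the tumours, against 942, 567 and 729 in non-tumour liver (log2 difference 0.57 ± 0.12, adjusted p = 0.00177), and Trib3, a pseudokinase induced by stress, had 1198, 739.6 and 569 normalised reads in the tumours, against 640.0, 111 and 101 in non-tumour liver (log2 difference 1.86 ± 0.42, adjusted p = 0.00254). Sars had an adjusted p of 0.076 in the paired 6-library fit. The rises were without overlap in Psat1 and Sars, while in Trib3 non-tumour library 1 lay above tumour library 3. Asns, asparagine synthetase and a classic ATF4 target, had 1357, 45.8 and 165 normalised reads in the tumours, against 66.1, 114 and 26.7 in non-tumour liver, with 1357 reads in tumour library 1 alone, and was not called (adjusted p = 0.0863, 0.0401 with the replicate block in the 45-library fit and 0.253 in the paired 6-library fit). In the paired 6-library fit 4 members rose. The count of rises was 10, 4 and 5 without non-tumour library 1, 2 and 3, and 5, 8 and 8 without tumour library 1, 2 and 3.

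Genes of one-carbon metabolism moved both ways. Of 30 members of serine, one-carbon and nucleotide synthesis 6 rose (20%, against 8.39% of all genes) and 7 fell (23.3%, against 6.32%). Gnmt, which uses up S-adenosylmethionine by methylating glycine, had 2384, 3949 and 7188 normalised reads in the tumours, against 11247, 25566 and 18863 in non-tumour liver (log2 difference −2.10 ± 0.38, adjusted p = 0.000312). Bhmt, which remakes methionine from homocysteine, had 98.8, 133 and 221 normalised reads in the tumours, against 400.1, 1085 and 1072 in non-tumour liver (log2 difference −2.24 ± 0.46, adjusted p = 0.00103). Both are enzymes of the mature liver and fell without overlap. Impdh1, which opens the synthesis of guanine nucleotides, had 219, 139 and 151 normalised reads in the tumours, against 108, 76.9 and 66.3 in non-tumour liver (log2 difference 0.83 ± 0.19, adjusted p = 0.00304) and rose, as did Psat1. Counts without 1 library ran from 2 to 6 rises and from 3 to 7 falls, the lowest without non-tumour libraries 2 and 3 and tumour library 1.

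Secreted hepatocyte proteins rose in 7 of 25 measured members and fell in 0, with a median of 0.23. With quantile normalization 6 rose and 2 fell, with the replicate block in the 45-library fit 8 and 2, and in the paired 6-library fit 2 and 0. The count of rises was 4 to 7 without single libraries. Ahsg, fetuin A, had 1285370.0, 1387530.0 and 1253520.0 normalised reads in the tumours, against 619125, 360414 and 469319 in non-tumour liver (log2 difference 1.47 ± 0.31, adjusted p = 0.00113). Serpina1b, an α1-antitrypsin, had 402870.0, 432428 and 379412 normalised reads in the tumours, against 204383, 125214 and 115043 in non-tumour liver (log2 difference 1.50 ± 0.26, adjusted p = 0.000186), and Itih2, an inter-α-trypsin inhibitor chain, had 16173, 13161 and 11069 normalised reads in the tumours, against 8865, 7061 and 6180.1 in non-tumour liver (log2 difference 0.87 ± 0.17, adjusted p = 0.000784). The tumours lay above non-tumour liver throughout. Reads of Serpina1b and its near copies may be divided between them, and with quantile normalization Ahsg was not called (adjusted p = 0.0858). Ahsg had an adjusted p of 0.0624 in the paired 6-library fit. The summed reads of the list were 4044890.0 to 4853020.0 in tumours and 2438150.0 to 2964030.0 in non-tumour liver. Of 25 hepatocyte transcription factors 6 fell and 0 rose, and the falls numbered 9, 3 and 4 without non-tumour library 1, 2 and 3, and 2, 4 and 6 without tumour library 1, 2 and 3. Onecut2 had 72.7, 560.1 and 326 normalised reads in the tumours, against 729.8, 1482 and 1212 in non-tumour liver (log2 difference −2.04 ± 0.39, adjusted p = 0.00054), and Cebpa, a master regulator of adult hepatocyte genes, had 511, 703 and 971 normalised reads in the tumours, against 1213, 1306 and 1511 in non-tumour liver (log2 difference −0.90 ± 0.21, adjusted p = 0.00354). Omissions gave Cebpa an adjusted p of 0.0575 without tumour library 1.

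Proteins of the acute phase went both ways, with 6 of 29 measured members higher and 5 lower. Without single libraries 2 to 6 were higher and 1 to 4 lower, and in the paired 6-library fit 2 and 5. Cp, ceruloplasmin, had 74885, 69505 and 58018 normalised reads in the tumours, against 40842, 22393 and 27707 in non-tumour liver (log2 difference 1.19 ± 0.23, adjusted p = 0.000551). Il1rn, the interleukin-1 receptor antagonist, had 167, 367 and 691 normalised reads in the tumours, against 175, 45.1 and 47.3 in non-tumour liver (log2 difference 1.91 ± 0.39, adjusted p = 0.00105), and tumour library 1 overlapped non-tumour library 1. Il1rn had an adjusted p of 0.0854 in the paired 6-library fit. Saa3, a serum amyloid of inflamed tissue, had 18, 22.6 and 49.7 normalised reads in the tumours, against 201, 61.4 and 97.6 in non-tumour liver (log2 difference −1.36 ± 0.37, adjusted p = 0.0102). The call of Saa3 was lost, with an adjusted p of 0.0733 without non-tumour library 1 and 0.069 without tumour library 1. Acute phase genes thus did not move in 1 direction. Of 34 measured complement and coagulation genes 6 fell (17.6%, against 6.32% of all genes) and 2 rose (5.88%, against 8.39%). Without single libraries 2 to 7 fell and 0 to 3 rose, with the fewest falls without non-tumour library 2. Mbl2, a mannose-binding lectin of complement, had 1256, 523 and 920.5 normalised reads in the tumours, against 2255, 2593 and 3098 in non-tumour liver (log2 difference −1.60 ± 0.31, adjusted p = 0.000603), and C8b, a subunit of the membrane attack complex, had 1175, 2574 and 2359.7 normalised reads in the tumours, against 4212, 8188 and 5077 in non-tumour liver (log2 difference −1.52 ± 0.31, adjusted p = 0.00101).

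Iron and metal genes gave a few clear calls. Slc40a1, the iron exporter ferroportin of macrophages and hepatocytes, had 79, 101 and 130.5 normalised reads in the tumours, against 236, 267 and 269 in non-tumour liver (log2 difference −1.15 ± 0.17, adjusted p = 5.91e-05), without overlap and under every omission of a library. Hamp, hepcidin, the hormone that degrades ferroportin, had 78201, 7295 and 51628 normalised reads in the tumours, against 145721, 107316 and 244560.0 in non-tumour liver (log2 difference −2.34 ± 0.78, adjusted p = 0.0374). Hamp lost its call, with an adjusted p of 0.0516 without non-tumour library 1, 0.0686 without non-tumour library 2, 0.159 without non-tumour library 3 and 0.311 without tumour library 2. Tumour library 2 was the lowest for Hamp at 7295 reads. Slc39a4, a zinc importer, had 11628, 13264 and 9129.9 normalised reads in the tumours, against 6368, 1875 and 2487 in non-tumour liver (log2 difference 1.84 ± 0.51, adjusted p = 0.0126). Slc39a4 had an adjusted p of 0.112 without non-tumour library 2 and 0.0684 without non-tumour library 3.

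Markers of other liver cells moved as well. In bulk tissue fewer cells of a type and less RNA per cell cannot be told apart. Kupffer cell markers, of the resident macrophages, fell in 4 of 15 measured members (16 listed) and rose in 0, with a median of −0.89. Their summed reads were 2399 to 3979 in tumours and 5942 to 6535 in non-tumour liver. Fcna, a ficolin, had 62.2, 223 and 184 normalised reads in the tumours, against 409, 411 and 493 in non-tumour liver (log2 difference −1.47 ± 0.34, adjusted p = 0.00315). Without tumour library 1 the adjusted p of Fcna was 0.0651. Clec4f, the defining marker of these cells, had 235, 596 and 493 normalised reads in the tumours, against 899, 921 and 915 in non-tumour liver (log2 difference −1.09 ± 0.44, adjusted p = 0.0938), and the groups did not overlap though it was not called. With the replicate block Clec4f was called (adjusted p = 0.0295 in the 45-library fit and 0.0405 in the paired 6-library fit), and the list had 6 and 8 falls. The count of falls was 4, 2 and 3 without non-tumour library 1, 2 and 3, and 1, 5 and 2 without tumour library 1, 2 and 3.

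Markers of recruited macrophages rose in 6 of 26 members and fell in 0, with a median of 0.26. Cd63, a lysosomal membrane protein, had 336, 422 and 327 normalised reads in the tumours, against 239.9, 66 and 61 in non-tumour liver (log2 difference 1.59 ± 0.31, adjusted p = 0.000551). Cd14, a receptor for bacterial lipopolysaccharide, had 97.1, 34.2 and 42.5 normalised reads in the tumours, against 20.6, 13.2 and 8.38 in non-tumour liver (log2 difference 1.12 ± 0.26, adjusted p = 0.00315). For Cd14 the adjusted p was 0.0603 without tumour library 1. Cd63 and Apoc2, both on this list, are also made by other liver cells. Trem2, a marker of lipid-associated macrophages named after its values were seen, had 51.1, 37.4 and 36.8 normalised reads in the tumours, against 53.6, 26.4 and 23.6 in non-tumour liver, and the groups overlapped. The count of rises was 7, 6 and 3 without non-tumour library 1, 2 and 3, and 3, 5 and 6 without tumour library 1, 2 and 3.

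Stellate cell and matrix genes had 6 rises and 2 falls among 37 measured members (38 listed), with a median of 0.20. The rises were 16.2% of members, against 8.39% of all genes. The falls were 5.41%, near the 6.32% of all genes. Acta2, smooth muscle actin and a mark of activated stellate cells, had 562, 323 and 806 normalised reads in the tumours, against 129, 81.6 and 148 in non-tumour liver (log2 difference 1.96 ± 0.40, adjusted p = 0.000978). Tgfb2, a ligand that drives fibrosis, had 76.1, 61.6 and 61.6 normalised reads in the tumours, against 32.4, 13.2 and 13.7 in non-tumour liver (log2 difference 1.13 ± 0.21, adjusted p = 0.000332). The falls were Lrat, which stores vitamin A in quiescent stellate cells, with 40.7, 75.3 and 67.3 normalised reads in the tumours, against 164, 176 and 216 in non-tumour liver (log2 difference −1.31 ± 0.27, adjusted p = 0.00115), and Dcn, the matrix proteoglycan decorin, with 773, 1119.7 and 1359 normalised reads in the tumours, against 2601, 2591 and 2751 in non-tumour liver (log2 difference −1.30 ± 0.26, adjusted p = 0.000748). None of these 4 overlapped between tissues. Col1a1, a chain of collagen I and a stellate cell marker, had 1359, 1169 and 643 normalised reads in the tumours, against 513, 223 and 293 in non-tumour liver (log2 difference 1.56 ± 0.55, adjusted p = 0.0486) and rose without overlap. When single libraries were left out, Col1a1 had an adjusted p of 0.21 without non-tumour library 2, 0.139 without non-tumour library 3, 0.187 without tumour library 1 and 0.126 without tumour library 2. The stellate marker Pdgfrb had 19.8, 13.2 and 21.2 normalised reads in the tumours, against 27.4, 17.1 and 18.3 in non-tumour liver and a log2 difference of −0.11 ± 0.18 (adjusted p = 0.761). In WT tumours 18 members rose and 2 fell, and in MKO tumours 19 rose and 0 fell. Of all genes 15% were called higher in WT tumours and 9.76% in MKO tumours. The number of rises in BKO tumours was 8, 3 and 3 without non-tumour library 1, 2 and 3, and 4, 5 and 6 without tumour library 1, 2 and 3.

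Endothelial genes gave 2 rises (7.69%, against 8.39% of all genes) and 3 falls (11.5%, against 6.32%) among 26 members. Without single libraries the rises numbered 0 to 2 and the falls 1 to 5. Rspo3, an enhancer of WNT signalling made by central vein endothelium, had 4.65, 6.84 and 9.32 normalised reads in the tumours, against 39.9, 36.5 and 31.2 in non-tumour liver (log2 difference −1.12 ± 0.19, adjusted p = 0.00016). Cd34, a marker of capillary endothelium, had 220.3, 214 and 256 normalised reads in the tumours, against 105, 60.6 and 48.8 in non-tumour liver (log2 difference 1.44 ± 0.37, adjusted p = 0.0076). Omissions gave Cd34 an adjusted p of 0.0574 without non-tumour library 3. The sinusoidal markers Stab2, Clec4g and Lyve1 were not called, with log2 differences of 0.14 ± 0.22, −0.84 ± 0.38 and −0.01 ± 0.37. Clec4g had an adjusted p of 0.0326 in the paired 6-library fit. Cxcl12, a chemokine of stromal and endothelial cells, had 217, 210.0 and 338 normalised reads in the tumours, against 673, 819.6 and 780.4 in non-tumour liver (log2 difference −1.50 ± 0.23, adjusted p = 6.16e-05) and fell without overlap.

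Of 18 cholangiocyte and progenitor genes (22 listed) 4 rose (22.2%, against 8.39% of all genes) and 0 fell. The rises numbered 6, 3 and 3 without non-tumour library 1, 2 and 3, and 2, 3 and 7 without tumour library 1, 2 and 3. Krt18, a keratin that hepatocytes share with bile ducts, had 8289.8, 4647 and 3915 normalised reads in the tumours, against 3329.8, 1811 and 1716 in non-tumour liver (log2 difference 1.28 ± 0.23, adjusted p = 0.000323). Krt23, a keratin of injured and malignant liver, had 184, 50.5 and 48.1 normalised reads in the tumours, against 23.1, 16.3 and 24.4 in non-tumour liver (log2 difference 1.24 ± 0.36, adjusted p = 0.0188). The call of Krt23 was lost, with an adjusted p of 0.0912 without non-tumour library 2 and 0.239 without tumour library 1. The duct marker Krt19 had 19.2, 71.6 and 21.2 normalised reads in the tumours, against 25.6, 36.5 and 46.5 in non-tumour liver and was not called (adjusted p = 0.891), with tumour library 2 the highest of the 6. Prom1, given above, rose as well, and Epcam and Sox9 were not called (adjusted p = 0.952 and 0.525).

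Lymphocyte and interferon genes gave few calls. Of 13 measured T and NK cell genes 0 were called, of 11 class II presentation genes 0, and of 38 interferon-stimulated genes 1 rose and 1 fell. Of 22 class I presentation genes 4 rose (18.2%, against 8.39% of all genes) and 0 fell. The class I rises numbered 6, 2 and 1 without non-tumour library 1, 2 and 3, and 1, 3 and 5 without tumour library 1, 2 and 3. Tap1, a peptide transporter for class I loading, had 349, 309 and 235 normalised reads in the tumours, against 183, 127 and 124 in non-tumour liver (log2 difference 0.92 ± 0.23, adjusted p = 0.00657). Tap1 lost its call, with an adjusted p of 0.0511 without tumour library 1. Of 20 B and plasma cell genes 4 rose (20%, against 8.39% of all genes), all of them immunoglobulin genes or Jchain. The rises numbered 5, 0 and 0 without non-tumour library 1, 2 and 3, and 0, 0 and 8 without tumour library 1, 2 and 3. With voom 1 rose. The B cell marker Ms4a1 had 3.49, 4.21 and 1.55 normalised reads in the tumours, against 15.6, 2.33 and 3.05 in non-tumour liver. It was not called (log2 difference −0.24 ± 0.19, adjusted p = 0.428). Igkc, the κ light chain, had 16787, 21532 and 2566 normalised reads in the tumours, against 6713, 2703 and 1762 in non-tumour liver (log2 difference 1.61 ± 0.56, adjusted p = 0.0486), with tumour library 3 below non-tumour library 1. Igkc had an adjusted p of 0.165 without non-tumour library 2, 0.257 without non-tumour library 3, 0.251 without tumour library 1 and 0.282 without tumour library 2. Igkc had an adjusted p of 0.0617 in the paired 6-library fit. Without tumour library 3 its log2 difference was 2.57. Immunoglobulin reads may be divided among related segments. The neutrophil list had 1 rise among 10 members, which was Lcn2.

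Of 19 measured imprinted genes (24 listed) 3 rose (15.8%, against 8.39% of all genes) and 1 fell (5.26%, against 6.32%). Meg3, a maternally expressed long noncoding RNA on chromosome 12 (chr12:109541001-109571726, plus strand), had 569, 2636 and 1979.7 normalised reads in the tumours, against 849, 208 and 23.6 in non-tumour liver (log2 difference 2.78 ± 0.81, adjusted p = 0.0175). Tumour library 1 lay below non-tumour library 1, and the other tumours lay above all non-tumour libraries. Meg3 missed the threshold when single libraries were left out, with an adjusted p of 0.0576 without non-tumour library 2, 0.218 without non-tumour library 3, 0.0874 without tumour library 2 and 0.0537 without tumour library 3. Meg3 had an adjusted p of 0.127 in the paired 6-library fit. Mirg, a noncoding RNA that begins 0.158 Mb downstream in the same imprinted cluster, had 7.56, 17.9 and 20.7 normalised reads in the tumours, against 1.25, 2.33 and 0.762 in non-tumour liver (log2 difference 0.96 ± 0.22, adjusted p = 0.00277), without overlap and under every omission of a library. In WT mice the differences were −0.12 ± 0.81 for Meg3 (adjusted p = 0.934) and 0.31 ± 0.22 for Mirg (adjusted p = 0.322). The difference of the tumour effect between BKO and WT was 2.90 ± 1.14 for Meg3 and 0.66 ± 0.31 for Mirg, neither of them called (adjusted p = 0.599 and 0.685). H19, another imprinted noncoding RNA, had 214, 106 and 4333 normalised reads in the tumours, against 169, 203 and 35.1 in non-tumour liver, with 1 tumour far above the others, and was not called (adjusted p = 0.202). WT tumours held 5494, 8038 and 18998 reads of H19.

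Across genes the tumour effect in BKO mice resembled that in WT mice. The Pearson correlation of the differences over all 12966 genes was 0.85 with WT and 0.79 with MKO, as a description across genes that are not independent. Of the 1907 genes called in BKO, 1876 (98.4%) had the same sign in WT and 1827 (95.8%) in MKO. Over all 12966 genes the same sign was found in 76.5% for WT and 71.6% for MKO. Genes called in BKO were selected for a clear difference, which raises their share. In WT 3510 genes were called (27.1%), with 1949 higher (15%) and 1561 lower (12%), and in MKO 2245 (17.3%), with 1265 higher (9.76%) and 980 lower (7.56%). Genes called in the same direction in both BKO and WT numbered 1478, which was 77.5% of the BKO calls and 42.1% of the WT calls. For BKO and MKO they numbered 1052, which was 55.2% of the BKO calls and 46.9% of the MKO calls. The number of calls in a genotype does not by itself show the size of its effects, and the difference between genotypes was tested gene by gene.

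**Figure D5:**
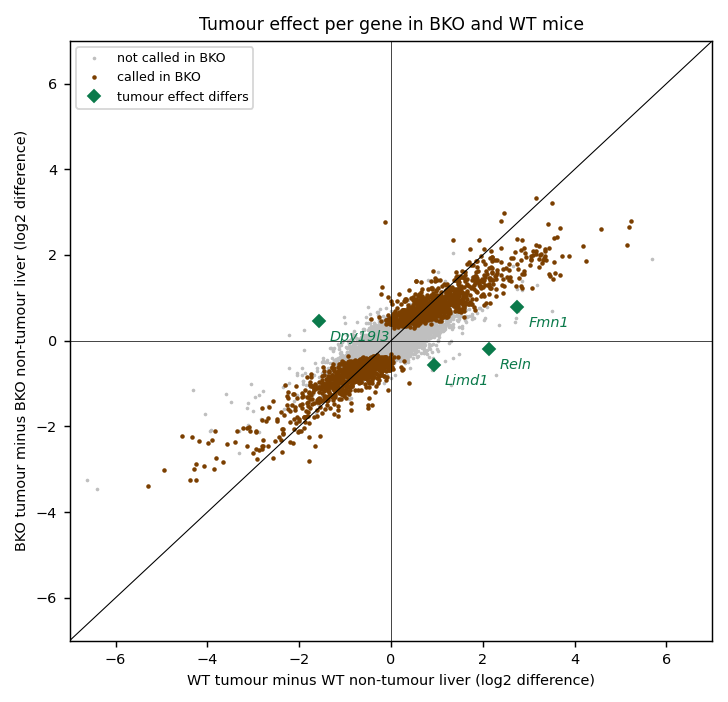
Tumour minus non-tumour log2 difference of each gene in BKO mice (vertical axis) against that in WT mice (horizontal axis), with genes called in BKO in brown, other genes in grey and the 4 genes whose tumour effect differed between BKO and WT as green diamonds. Points follow the diagonal (Pearson correlation 0.85), and Dpy19l3, Fmn1, Reln and Limd1 lie off it.

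The tumour effect differed between BKO and WT in 4 genes (0.0308% of those tested) by limma, 1 with a more positive effect in BKO (0.00771%) and 3 with a more negative one (0.0231%), against 919 at an unadjusted p below 0.05. Limd1, a LIM domain gene (chr9:123478706-123521552), had 94.2, 112 and 108 reads in BKO tumours, against 133, 222 and 155 in BKO non-tumour liver, and 1108, 833 and 784 in WT tumours, against 494, 443 and 441 in WT non-tumour liver. It was lower in BKO tumours and higher in WT tumours than in the matching non-tumour liver, a difference of −1.49 ± 0.25 (adjusted p = 0.00456). At 1, 3 and 5 months BKO livers had 148 to 377 reads of Limd1, against 465 to 597 in WT livers. The adjusted p of this difference was 0.0523 without BKO non-tumour library 2. Limd1 lies 2.52 Mb from Ctnnb1, the targeted gene, and whether flanking DNA of the targeted allele bears on its level was not tested.

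Fmn1, an actin-nucleating formin (chr2:113327736-113716767), had 166, 145 and 128 reads in BKO tumours, against 111, 50.5 and 70.1 in BKO non-tumour liver, and 159, 298 and 307 in WT tumours, against 21.8, 17.6 and 12.6 in WT non-tumour liver. The tumour effect was smaller in BKO by −1.97 ± 0.33 (adjusted p = 0.00391), with BKO non-tumour liver above WT non-tumour liver. At 1, 3 and 5 months mean reads of Fmn1 were 61.6, 42.6 and 52.3 in BKO livers and 26.0, 18.1 and 27.35 in WT livers. Reln, the secreted glycoprotein reelin (chr5:21884454-22344702), had 704, 533 and 204 reads in BKO tumours, against 646, 389 and 475 in BKO non-tumour liver, and 1630.3, 601 and 846 in WT tumours, against 173, 182 and 229.9 in WT non-tumour liver (difference of the effects −2.32 ± 0.38, adjusted p = 0.00391). Among these 4 groups the WT non-tumour libraries were the low one. At 1, 3 and 5 months mean reads of Reln were 188, 194 and 206 in WT livers and 228, 252 and 281 in BKO livers. BKO non-tumour liver of 8 months, with a mean of 503, lay above all of these. Dpy19l3, a mannosyltransferase gene (chr7:35685165-35754454), had 37.2, 27.4 and 31.6 reads in BKO tumours, against 25.6, 8.55 and 22.9 in BKO non-tumour liver, and 19.2, 57.8 and 16.1 in WT tumours, against 104, 125 and 163 in WT non-tumour liver (difference 2.03 ± 0.40, adjusted p = 0.0409). WT non-tumour liver was the high group for this gene. The adjusted p of the Dpy19l3 difference was 0.143 without BKO non-tumour library 2, 0.129 without BKO tumour library 1 and 0.0820 without BKO tumour library 3.

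Against MKO the tumour effect differed in 2 genes (0.0154%), 1 in each direction (0.00771% each), with 864 at an unadjusted p below 0.05. Abcg8, which exports sterols into bile (chr17:84676302-84700333), had 613, 1078 and 1087 reads in BKO tumours, against 442, 625 and 442 in BKO non-tumour liver, and 771, 702 and 1165 in MKO tumours, against 1674, 1438 and 1548 in MKO non-tumour liver. It rose in BKO tumours and fell in MKO tumours (difference 1.65 ± 0.31, adjusted p = 0.034). Srpx2, a secreted sushi-repeat protein (chrX:133908426-133932446), had 15.7, 24.2 and 14 reads in BKO tumours, against 41.1, 35.7 and 50.3 in BKO non-tumour liver, and 47.3, 36.4 and 21.4 in MKO tumours, against 11.3, 26.1 and 20.9 in MKO non-tumour liver (difference −1.19 ± 0.21, adjusted p = 0.0184). The Abcg8 difference had an adjusted p of 0.140 without BKO non-tumour library 1, 0.142 without BKO non-tumour library 3, 0.0882 without BKO tumour library 2 and 0.0809 without BKO tumour library 3. That of Srpx2 had 0.0591 without BKO non-tumour library 1 and 0.0835 without BKO non-tumour library 3.

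The 3 BKO tumours differed among themselves. The median SD of a gene within the tumours was 0.197 on the deposited log2 scale, against 0.198 within non-tumour liver. Tmc5, a channel-like membrane gene, had 284, 14.2 and 1.55 reads in tumours 1, 2 and 3, Soga3 had 2.32, 132 and 0, and H19 had 214, 106 and 4333. Each of these was high in a different tumour. Cyp17a1, a steroid hydroxylase, had 159, 2576 and 473 reads, and Ighg2c, an immunoglobulin heavy chain, had 621, 1289 and 50.7. Tumour library 1 was lowest for liver enzymes such as G6pc, the phosphatase that releases glucose, with 66.3, 728 and 705 normalised reads in the tumours, against 970.3, 4043 and 2084 in non-tumour liver (log2 difference −2.46 ± 0.66, adjusted p = 0.00947). For G6pc the adjusted p was 0.0979 without non-tumour library 2 and 0.168 without tumour library 1. With 1 library per tumour number, such values describe single libraries and have no replicate.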

How the data were processed

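Total RNA of liver and liver tumours from mice given DEN was sequenced from MAPS libraries on a HiSeq2000, per the labels' protocols. Per the submitters' processing notes, STAR 2.7.10a, HTSeq 2.0.2 and DESeq2 1.32.0 were used with GRCm38/mm10. The authors deposited 1 table of log2-scale values after a variance-stabilising transform, for 12966 genes and 105 libraries, and 0 columns were left out. Its name lists further scales, so the values themselves were examined: 3.8289 is the lowest value in every library and stands for 0 reads, and the inverse transform returned integers (tolerance 0.05) in 100.00% of cases. These recovered reads, divided by size factors, are the normalised reads of the text. Counting error is a lower bound on the error of a level, and errors given are between libraries.

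Tests used the deposited values in R 4.3.3 with limma 3.58.1: 1 mean for each of 15 groups of 3 libraries in sequencing group 2 (45 libraries), empirical Bayes moderation with a trend, and Benjamini-Hochberg adjustment over all genes. WT and MKO comparisons served as context and were not refitted. Gene positions came from GENCODE M21 (GRCm38) and promoters from RefSeq (GRCm38.p6).

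The comparison, the gene lists and the naming rule were chosen with earlier results of these data known. The rule named Ctnnb1, the 14 largest rises and falls among called genes without overlap of the groups, the called differences between genotypes, up to 4 called members of each list with the smallest p (in lists without a call, the 2 highest means), and the genes that varied most among tumours; predicted genes were passed over, and results of some list members are not reported here. List members absent from the deposited table were not analysed here. Alternatives were a mean value of at least 6 (7537 genes), quantile normalization, the compared groups alone, a replicate block in either fit, no trend, library weights, voom on recovered reads and leaving out each BKO library. The replicate block took same-numbered libraries of a genotype as pairs, in WT and MKO as well as BKO. Deviations of same-numbered BKO tumour and non-tumour libraries correlated at 0.38, 0.27 and 0.25, against −0.39 to 0.22 for different numbers. Same-numbered values were −0.05, −0.22 and 0.04 in WT and −0.25, 0.44 and 0.39 in MKO. Different numbers reached 0.21 in WT and 0.38 in MKO. The labels do not say that same-numbered libraries come from the same animal, so the pairing is not established.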

Additional observations from a re-analysis of the deposited data

Results flagged for a closer look

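Each of the following 6 genes was picked out because its tumour effect differed between genotypes in the test of that difference. Out of 12966 genes tested, Dpy19l3, a mannosyltransferase gene, differed between BKO and WT by 2.03, Reln, reelin, by −2.32, Fmn1, a formin, by −1.97 and Limd1, a LIM domain gene, by −1.49 on the log2 scale. Between BKO and MKO, the sterol exporter gene Abcg8 differed by 1.65 and Srpx2, a secreted sushi-repeat protein, by −1.19. Over the alternatives run, the direction held for all 6. The Reln and Fmn1 calls held in 12 of 14 alternatives, Limd1 in 11 of 14, Abcg8 in 8 of 14, Dpy19l3 in 7 of 14 and Srpx2 in 9 of 13. None of the 6 was called in the fits of the compared groups alone, where the adjusted p was 0.438 for Dpy19l3, Fmn1 and Limd1, 1 for Reln and 0.998 for Abcg8 and Srpx2.

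The levels behind these differences were set by different groups. Limd1 was lower in BKO than in WT libraries in both tissues, with 94.2, 112 and 108 reads in BKO tumours and 1108, 833 and 784 in WT tumours. Dpy19l3 was high in WT non-tumour liver alone among these 4 groups, with 104, 125 and 163 reads, against 8.55 to 37.2 in the 6 BKO libraries. MKO non-tumour liver, outside these groups, held a mean of 84.9 reads of Dpy19l3. Reln and Fmn1 were lowest in WT non-tumour liver among these 4 groups, with 173, 182 and 229.9 and 21.8, 17.6 and 12.6 reads. BKO non-tumour liver held 646, 389 and 475 and 111, 50.5 and 70.1. WT livers of 1, 3 and 5 months had means of 188 to 206 reads of Reln and 18.1 to 27.35 of Fmn1. Abcg8 was highest in MKO non-tumour liver, with 1674, 1438 and 1548 reads, against 442, 625 and 442 in BKO non-tumour liver.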

How the results depend on the processing

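Alternatives did not turn round any called difference of a named gene: over all repeats of single genes, 2129 kept the call or its absence, 471 lost it and 19 gained it. In the fit of the 6 libraries alone, 8 genes were called higher and 4 lower, and with the replicate block in that fit 595 and 547. Leaving out single libraries gave 476 to 1386 genes higher and 304 to 1131 lower. The remaining settings gave 739 to 1314 higher and 700 to 1023 lower. Of the differences between BKO and WT, more positive effects numbered 0 in the fit of the compared groups with or without the replicate block, with library weights and with voom, and 0 to 3 without single libraries. More negative effects numbered 0 in both fits of the compared groups, 6 with the replicate block in the 45-library fit and 2 to 6 without single libraries. Between BKO and MKO, more positive effects numbered 0 in both fits of the compared groups and 0 to 3 without single libraries. More negative ones numbered 0 with the filter, which drops Srpx2, 0 in both fits of the compared groups and 0 to 2 without single libraries. The fits of the compared groups hold fewer libraries and residual degrees of freedom than the 45-library fit. The cause of the differences between settings was not tested for any of them. Rises were 57.1% of calls, 51.7% with quantile normalization and 66.7% of the 12 calls in the fit of the 6 libraries, and the median difference of all genes stayed within −0.004 and 0.028. Among 190 results for named genes, the replicate block in the 45-library fit ended 0 calls and added 3, while in the 6-library fit it ended 44 and added 3. That 6-library fit also gave 3 rises of proliferation genes, 3 rises and 4 falls of female-biased genes, 1 rise of the IGF list, 1 of imprinted genes and 4 falls of one-carbon genes. Genes with few reads are limited by the flattening of the deposited scale, and a gene not called is not shown to be equal between tissues.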

Other observations

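Genes of amino acid breakdown were lower in the tumours. A list of 44 textbook enzymes for the breakdown of amino acids was written after the values were seen, so its counts are a description. Of 43 measured members 25 fell and 0 rose, with a median difference of −0.64, and 11 were called without any 1 of the 6 BKO libraries. Hibadh, of valine breakdown, had 246, 248 and 347 normalised reads in the tumours, against 547, 758 and 835 in non-tumour liver (log2 difference −1.26 ± 0.20, adjusted p = 8.34e-05). Aass, which opens the breakdown of lysine, had 316, 378 and 363 normalised reads in the tumours, against 666, 1425 and 1042 in non-tumour liver (log2 difference −1.44 ± 0.26, adjusted p = 0.000317), and Gcdh, later in the same pathway, had 668, 787 and 1032 normalised reads in the tumours, against 1365, 2286 and 1885 in non-tumour liver (log2 difference −1.12 ± 0.23, adjusted p = 0.00104). Hpd, of tyrosine breakdown, had 2610.2, 5159 and 6443 normalised reads in the tumours, against 8119, 20958 and 13858 in non-tumour liver (log2 difference −1.58 ± 0.38, adjusted p = 0.00386). In each of these the tumours lay below non-tumour liver without overlap. The summed reads of the list were 41632 to 60014 in tumours and 68161 to 107915 in non-tumour liver. In WT tumours, where 12% of all genes were called lower, 30 of the 43 fell and 0 rose. The number of falls in BKO tumours was 28, 12 and 18 without non-tumour library 1, 2 and 3, and 16, 23 and 24 without tumour library 1, 2 and 3.

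Genes of the basement membrane and its receptors, a list also written after the values were seen, rose in 11 of 26 measured members (29 listed) and fell in 1, with a median of 0.33. Nid1, which links laminin to collagen IV, had 1219, 815 and 489.8 normalised reads in the tumours, against 385, 110.3 and 96 in non-tumour liver (log2 difference 2.10 ± 0.35, adjusted p = 0.000156). Col4a4, a chain of collagen IV known from kidney basement membrane, had 134, 192 and 569 normalised reads in the tumours, against 95.4, 38.8 and 21.3 in non-tumour liver (log2 difference 1.97 ± 0.35, adjusted p = 0.000277), and Col4a3, encoded beside it, had 53.5, 89 and 199 normalised reads in the tumours, against 29.3, 14.8 and 3.05 in non-tumour liver (log2 difference 1.83 ± 0.32, adjusted p = 0.000186). Col4a4 had an adjusted p of 0.0689 in the paired 6-library fit. Col4a3 had an adjusted p of 0.0543 in the paired 6-library fit. The collagen IV chains Col4a1 and Col4a2, which occur in all basement membranes, had log2 differences of 1.27 ± 0.29 and 0.87 ± 0.24. Itga6, a laminin-binding integrin, had 129, 49.5 and 66.8 normalised reads in the tumours, against 28.7, 6.99 and 13 in non-tumour liver (log2 difference 1.45 ± 0.26, adjusted p = 0.000236). The member that fell was Lama1, the first laminin α chain of the embryo, with 17.4, 36.3 and 22.3 normalised reads in the tumours, against 57.3, 62.9 and 76.2 in non-tumour liver (log2 difference −0.90 ± 0.20, adjusted p = 0.00233). The number of rises was 11, 7 and 8 without non-tumour library 1, 2 and 3, and 7, 10 and 9 without tumour library 1, 2 and 3. Col4a3 and Col4a4 were highest in tumour library 3, while Nid1 and Itga6 were highest in tumour library 1.

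Annexins and S100 proteins rose in 5 of 17 measured members (29.4%, against 8.39% of all genes) and fell in 1 (5.88%, against 6.32%). The number of rises was 5, 2 and 2 without non-tumour library 1, 2 and 3, and 3, 6 and 6 without tumour library 1, 2 and 3. Anxa2, a membrane-binding protein, had 4510.2, 2596 and 1955 normalised reads in the tumours, against 1449.6, 463 and 492 in non-tumour liver (log2 difference 1.99 ± 0.39, adjusted p = 0.000631), and S100a1 fell, with 1272, 1238 and 2008 normalised reads in the tumours, against 2352, 3476 and 4249 in non-tumour liver (log2 difference −1.14 ± 0.26, adjusted p = 0.00258). Within the WAP domain family, Slpi, a protease inhibitor of mucosal surfaces, rose with Wfdc15b and had 650.4, 388 and 414 normalised reads in the tumours, against 157, 69.9 and 76.2 in non-tumour liver (log2 difference 2.03 ± 0.49, adjusted p = 0.00465), while Wfdc21 fell, with 194, 299.5 and 485 normalised reads in the tumours, against 1300.0, 1918 and 1723 in non-tumour liver (log2 difference −2.31 ± 0.47, adjusted p = 0.000966). These 4 genes and both lists were likewise picked after their values were seen.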
